A study of Mus musculus with 7 samples.

Results

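A set of 10 genes of bile acid synthesis and sensing was followed in the liver mRNA of male mice with and without TET1, an enzyme that oxidizes methylated cytosine. The members were named for their known roles in the pathway, with earlier results of these data known, and all 10, of 51426 genes in the count tables, passed the filter on low counts. Livers came from 3 wild-type (WT) mice and 4 mice with a whole-body knockout of Tet1 (TET1 KO), and each replicate was a separate mouse. The labels give the strain of both groups as C57BL/6J, and the study's methods describe a constitutive Tet1 null allele from the stock B6;129S4-Tet1tm1.1Jae/J, with wt/wt littermates as controls, and the backcross of this line is not given in the sources used here. All mice of both groups received a high-fat diet (HFD) for 16 weeks, which was begun at 8 weeks of age, and no mice on normal chow were part of these data. Because Tet1 was absent from every tissue, a change that arises in hepatocytes and a change that follows from another organ cannot be told apart. The hour of liver collection is not given in the sources used here.

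Hepatocytes make bile acids from cholesterol, secrete them into bile to help take up dietary fat, and recover most of them from portal blood. In the classic pathway, Cyp7a1 encodes the rate-limiting cholesterol hydroxylase and Cyp8b1 the enzyme that directs synthesis towards cholic acid. In the alternative pathway, cholesterol is first hydroxylated on its side chain, chiefly by the mitochondrial enzyme encoded by Cyp27a1, and the oxysterols are then hydroxylated by the products of Cyp7b1 and Cyp39a1. Akr1d1 encodes the reductase of the sterol ring, and Baat the enzyme that joins bile acids to taurine or glycine. Nr1h4 encodes FXR, the nuclear receptor for bile acids, and Nr0b2 encodes SHP, an FXR target that represses Cyp7a1 and Cyp8b1. Slc10a1 encodes NTCP, which carries bile acids from blood into the hepatocyte.

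Library sizes were between 15005277 and 22746138 counts, so that 1 CPM (the library-scaled count after TMM normalization) stood for 14.2 to 24.1 counts. The members had between 24 and 9424 counts per library. Tet1 had 1 to 4 counts in every library of both genotypes, near the floor of 3 counts, and therefore did not check the labels. Hepatocyte markers summed to 77140 to 88498 CPM in WT livers and to 80397 to 90240 CPM in TET1 KO livers, with 0 of 7 called by edgeR, 1 at an unadjusted p under 0.05 and 2 called higher by DESeq2. Replicate 1 of TET1 KO stood apart in its summed pericentral hepatocyte markers, at 5447 CPM. They summed to 8151 to 8625 CPM in WT livers and 9949 to 10217 CPM in the other TET1 KO livers. Cyp2e1 led this sum, with 3953 CPM in that mouse. Of the 9 markers, Glul, Oat, Slc1a2, Cyp2e1, Rhbg and Lhpp were lowest in this mouse. Cyp1a2 (534 CPM), Lgr5 (8.95 CPM) and Axin2 (5.20 CPM) were not. For the 10 genes, the pathway genes named and the marker lists, values without this mouse are given where they change a call. In bulk liver, fewer cells of a type and less RNA per cell cannot be told apart.

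Of the 10 genes, Cyp7b1 alone rose in TET1 KO livers by edgeR's quasi-likelihood test (adjusted p limit 0.05), and no member fell. Across all 14754 tested genes, 0.874% were called higher, 1.15% lower and 2.02% in either direction. At an unadjusted p under 0.05 there were 2 higher members (Cyp7b1 and Cyp27a1) and 1 lower member (Cyp8b1), where 13.6% of all tested genes were higher and 12.7% lower at this limit. DESeq2 called 2 higher and 0 lower, beside 8.74% of the genes for which it gave an adjusted p. The estimates were positive for 3 members and negative for 7, with a median log2 fold change of -0.11, while the median over all tested genes was 0.01. The ranges of the WT and TET1 KO livers did not overlap for 2 of the 10 members, Cyp7b1 and Cyp27a1, a share that lies near the 22.5% of all tested genes with such separation. Summed over the 10 genes, the level was 1340 to 1593 CPM in WT livers and 1277 to 1580 CPM in TET1 KO livers, so that the summed ranges overlapped nearly in full.

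**Figure D1:**
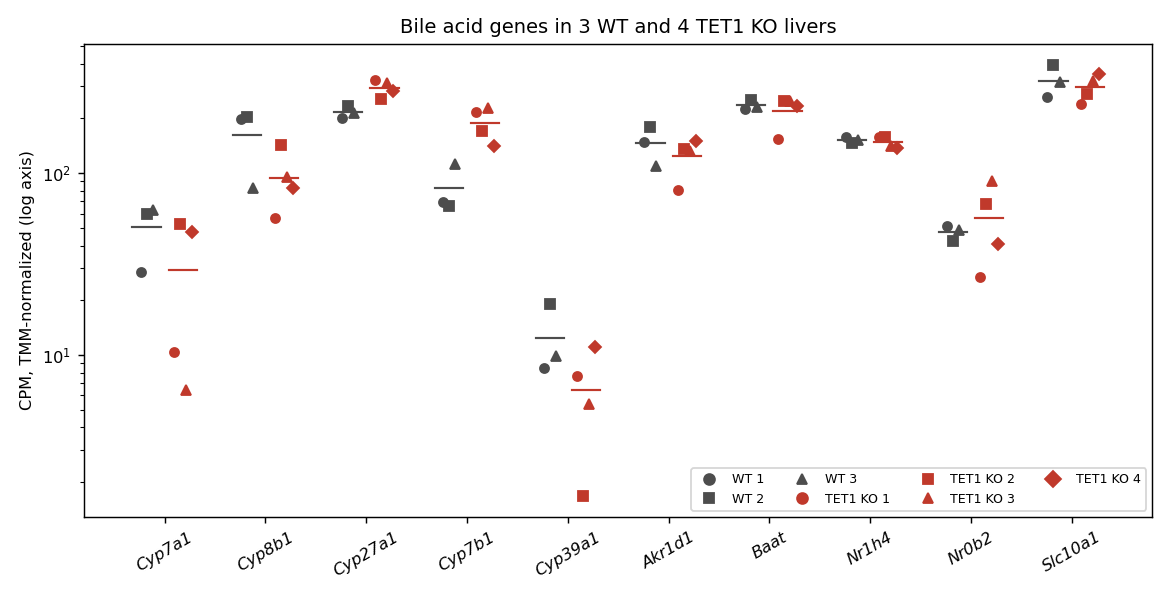
Level of each of the 10 genes in every liver, in TMM-normalized CPM on a log axis, with 1 symbol per mouse (WT in grey, TET1 KO in red) and a line at each group mean. The groups are separate for Cyp27a1 and Cyp7b1, and the TET1 KO livers are spread widely for Cyp7a1, from 6.39 to 52.8 CPM.

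Of the alternative pathway, Cyp7b1 rose, Cyp27a1 did not pass the test and Cyp39a1 had a negative estimate. Cyp7b1 (ENSMUSG00000039519, GRCm38.p6 chr3:18071944-18243890) had 69.4, 66.2 and 112 CPM in WT replicates 1 to 3 and 218, 171, 229 and 141 CPM in TET1 KO replicates 1 to 4. Every TET1 KO liver was above every WT liver, with the closest pair being WT replicate 3 and TET1 KO replicate 4. The group means were 82.5 ± 25.4 (SD, n = 3) and 190 ± 41.0 CPM (SD, n = 4), and the log2 fold change was 1.20 ± 0.23 (SE, edgeR adjusted p = 0.0271), a 2.30-fold higher level with a 95% interval of 1.63 to 3.25. Cyp7b1 ranked 143 among the tested genes by p. The call did not hold when 1 mouse was left out in 5 of 7 cases, WT replicates 1 and 2 and TET1 KO replicates 1, 2 and 3, with edgeR adjusted p between 0.0506 and 0.149 and log2 fold changes between 1.06 and 1.23. It held without WT replicate 3 or TET1 KO replicate 4, and the estimate stayed at 1.06 or more in all 7 cases.

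Cyp27a1 (ENSMUSG00000026170, chr1:74713148-74737897) had 201, 233 and 215 CPM in the WT livers and 324, 254, 312 and 283 CPM in the TET1 KO livers. Again no TET1 KO liver reached down to a WT liver, but the step was smaller than for Cyp7b1. The means were 216 ± 16.0 (SD, n = 3) and 293 ± 31.1 CPM (SD, n = 4), with a log2 fold change of 0.44 (95% interval 0.13 to 0.75) that did not pass edgeR (adjusted p = 0.0949) and passed DESeq2 (adjusted p = 0.0473). Cyp39a1, the least abundant member (ENSMUSG00000023963, chr17:43667372-43751431), had 8.47, 19.0 and 9.88 CPM in WT livers and 7.70, 1.69, 5.37 and 11.1 CPM in TET1 KO livers. These ranges overlapped, and the lowest TET1 KO value rested on 24 counts. The estimate was -0.93 on the log2 scale with a 95% interval of -1.95 to 0.09 (edgeR adjusted p = 0.222), and it was -0.50 without WT replicate 2 and -0.64 without TET1 KO replicate 2.

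In the classic pathway neither member passed the test. Cyp7a1 (ENSMUSG00000028240, chr4:6265612-6275632) had 28.7, 59.7 and 63.0 CPM in WT livers and 10.4, 52.8, 6.39 and 47.2 CPM in TET1 KO livers. Replicates 1 and 3 of TET1 KO were below all WT livers, whereas replicates 2 and 4 lay within the WT range. The means were 50.5 ± 18.9 (SD, n = 3) and 29.2 ± 24.2 CPM (SD, n = 4), with a log2 fold change of -0.79 ± 0.60 (SE, edgeR adjusted p = 0.417). The 95% interval, -2.12 to 0.54, spans both a large fall and a modest rise, so that a change of Cyp7a1 was not resolved with these mice. Leaving out 1 mouse moved the estimate between -1.25 (without TET1 KO replicate 2) and -0.46 (without TET1 KO replicate 3).

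The highest TET1 KO value of Cyp7a1 was 8.26 times the lowest, and this ratio exceeded that of 99.8% of the 7816 genes with a mean of at least 10 CPM, whose median ratio was 1.36. Among the WT livers the ratio was 2.19, above that of 97.6% of these genes. Both genotypes thus placed Cyp7a1 among the genes that varied most from mouse to mouse. The ratio for Nr0b2, which encodes the repressor SHP, was 3.37 in TET1 KO livers, above 98.5% of genes, and 1.20 in WT livers, above 32.7%. For Cyp8b1 it was 2.51 in TET1 KO and 2.44 in WT livers. The difference in spread between the genotypes was not tested.

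Cyp8b1 (ENSMUSG00000050445, chr9:121914356-121916305) had 199, 203 and 83.2 CPM in WT livers and 56.6, 142, 95.7 and 83.1 CPM in TET1 KO livers. WT replicate 3 lay among the TET1 KO livers, and the other 2 WT livers were above all of them. The means were 162 ± 68.0 (SD, n = 3) and 94.3 ± 35.7 CPM (SD, n = 4), with a log2 fold change of -0.78 ± 0.33 (SE, edgeR adjusted p = 0.167). Its 95% interval of -1.51 to -0.05 did not include 0, which counts for a single gene only and not after adjustment over all genes. With 1 mouse left out, the estimate lay between -1.11 and -0.59. Without WT replicate 1 or 2, or TET1 KO replicate 1, 3 or 4, Cyp8b1 was not lower at an unadjusted p under 0.05.

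The 250 bases before the start site are shown for Cyp8b1 and Nr0b2, an enzyme gene and the gene of its repressor, taken from the RefSeq promoter table (GRCm38.p6), which held 6 of the 10 genes. Capitals mark matches, searched on both strands, to CAAAGTCCA (an HNF4 element), CAAGGCCA (an LRH-1 element), CACGTG (an E box). A TATA box is marked by the letters TATAAA. The sequences run 5′ to 3′ on the strand of the gene, chr9:121916306-121916555 on the minus strand for Cyp8b1 and chr4:133553126-133553375 on the plus strand for Nr0b2.
Cyp8b1: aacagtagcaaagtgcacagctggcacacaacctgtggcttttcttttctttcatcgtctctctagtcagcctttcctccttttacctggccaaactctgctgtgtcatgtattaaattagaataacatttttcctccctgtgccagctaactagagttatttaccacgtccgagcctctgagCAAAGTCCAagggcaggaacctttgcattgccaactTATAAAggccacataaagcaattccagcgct
Nr0b2: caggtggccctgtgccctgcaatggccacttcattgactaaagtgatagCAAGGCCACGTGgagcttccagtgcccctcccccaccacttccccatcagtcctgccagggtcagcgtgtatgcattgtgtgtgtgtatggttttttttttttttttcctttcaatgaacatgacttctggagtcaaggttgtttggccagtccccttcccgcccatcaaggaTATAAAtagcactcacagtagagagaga
In Cyp8b1 the HNF4 letters began 67 bases and the TATA letters 31 bases before the start. In Nr0b2 the LRH-1 letters began 201 bases before the start and overlapped the E box by 2 bases, and the TATA letters began 28 bases before it. Of 32851 promoter windows of 300 bases, 0.475% held CAAAGTCCA, 2.4% held CAAGGCCA, 7.15% held CACGTG and 13.6% held TATAAA. The second LRH-1 form searched, CAAGGTCA, and the FXR inverted repeat were found in 0 of the 6 genes, and in 1.56% and 0.00913% of all windows. Of the D box letters, TTATGCAA was present in Akr1d1 and Slc10a1 (0.743% of all windows) and TTATGTAA in none of the 6 (0.938%). These matches describe letters, not binding.

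For ring reduction and conjugation, neither member passed the test. Akr1d1 (ENSMUSG00000038641, chr6:37529978-37574921) had 148, 179 and 110 CPM in WT livers and 81.1, 136, 132 and 150 CPM in TET1 KO livers, and the estimated log2 change was -0.22 (95% interval -0.71 to 0.26, edgeR adjusted p = 0.530), moving to -0.41 without WT replicate 3, -0.054 without WT replicate 2 and -0.064 without TET1 KO replicate 1. Baat (ENSMUSG00000039653, chr4:49489416-49507915) had 225, 252 and 231 CPM in WT livers and 153, 248, 248 and 233 CPM in TET1 KO livers. For Baat, replicate 1 of TET1 KO was below the other 6 mice, which lay between 225 and 252 CPM. Its log2 fold change was -0.10 (95% interval -0.48 to 0.29, edgeR adjusted p = 0.749) and turned to 0.045 without that mouse.

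The receptor of the sensing arm was the steadiest member. Nr1h4 (ENSMUSG00000047638, chr10:89454234-89533645) had 158, 147 and 153 CPM in WT livers and 159, 157, 140 and 138 CPM in TET1 KO livers. The log2 estimate of -0.04 had a 95% interval of -0.30 to 0.23 (edgeR adjusted p = 0.861), the narrowest among the 10 genes. Nr1h4 lies on the same chromosome as Tet1, at a distance of 26.6 Mb. Nr0b2 (ENSMUSG00000037583, chr4:133553376-133556686) had 51.0, 42.6 and 48.7 CPM in WT livers and 27.0, 67.9, 90.9 and 40.6 CPM in TET1 KO livers. The TET1 KO livers lay on both sides of the narrow WT range, with replicates 2 and 3 above it and replicates 1 and 4 below. The log2 fold change of Nr0b2 was 0.26 (95% interval -0.47 to 0.98, edgeR adjusted p = 0.640), and it turned to -0.084 without TET1 KO replicate 3.

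Slc10a1, the uptake transporter (ENSMUSG00000021135, chr12:80953185-80968705), had 262, 391 and 316 CPM in WT livers and 241, 271, 320 and 351 CPM in TET1 KO livers. The groups overlapped, and the log2 fold change was -0.13 (95% interval -0.53 to 0.27, edgeR adjusted p = 0.678), turning to 0.028 without WT replicate 2. Across the 10 genes, TET1 KO replicate 1 was the lowest of the 7 mice for 5 members (Cyp8b1, Akr1d1, Baat, Nr0b2 and Slc10a1) and the highest for 2 (Cyp27a1 and Nr1h4). WT replicate 2 was the highest for 5 members and the lowest for Cyp7b1.

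**Figure D2:**
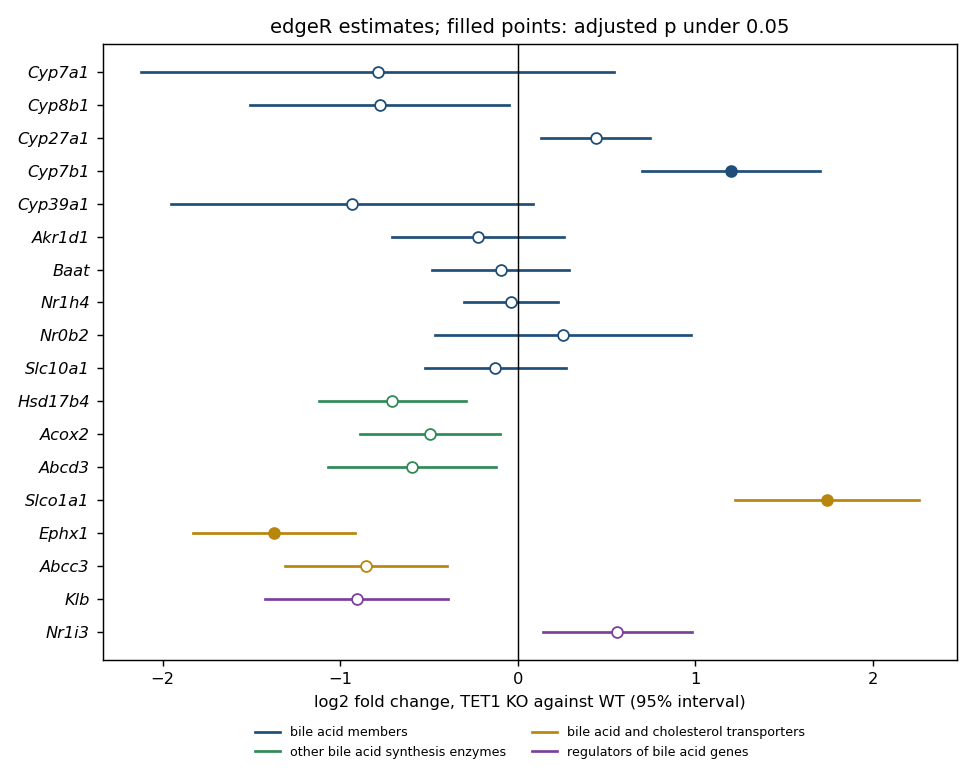
Log2 fold change of TET1 KO against WT with its 95% interval from edgeR, for the 10 members and for genes named from the 3 pathway lists, with the zero line marking no difference and filled points marking an adjusted p under 0.05. Filled points are Cyp7b1 and Slco1a1 on the higher side and Ephx1 on the lower side, and the interval of Cyp7a1 is the widest.

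Levels of different genes were compared per length, as RPKM over the summed exon length. In WT livers the order ran from Slc10a1 (204), Baat (121) and Cyp27a1 (114) through Cyp8b1 (82.9), Nr1h4 (66.3), Akr1d1 (50.0), Nr0b2 (41.9) and Cyp7b1 (38.1) to Cyp7a1 (12.1) and Cyp39a1 (4.08), given as mean RPKM. Among neighbours in this order, the WT ranges overlapped for Baat and Cyp27a1, for Cyp8b1 and Nr1h4, for Akr1d1 and Nr0b2, and for Nr0b2 and Cyp7b1. In TET1 KO livers Slc10a1 (187 RPKM) was followed by Cyp27a1 (155), Baat (114), Cyp7b1 (87.5), Nr1h4 (64.5), Nr0b2 (50.0), Cyp8b1 (48.4), Akr1d1 (42.8), Cyp7a1 (6.998) and Cyp39a1 (2.12). There the ranges of neighbours were separate only for Cyp27a1 and Baat and for Akr1d1 and Cyp7a1. The mean of Cyp7b1 was below that of Cyp8b1 in WT livers and above it in TET1 KO livers, but the ranges of this pair overlapped in both genotypes (30.6 to 51.6 and 42.6 to 104 RPKM in WT, 65.1 to 106 and 29.0 to 72.8 RPKM in TET1 KO).

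Ratios of 2 genes within a library do not depend on the scaling of the libraries, and 4 pairs were compared by an exact two-sided permutation test on log2 ratios, for which the 35 assignments of the mice allow no p under 0.0286, and a single pair at that limit would have an adjusted p of 0.114. The ratio of Cyp7b1 to Cyp7a1 counts, which sets the alternative beside the classic pathway, was 2.42, 1.11 and 1.77 in WT livers and 20.9, 3.23, 35.6 and 2.98 in TET1 KO livers. All TET1 KO ratios were above all WT ratios, and those of replicates 1 and 3, the mice with low Cyp7a1, were far above the rest. The mean log2 ratio was 0.75 ± 0.57 (SD, n = 3) in WT and 3.20 ± 1.84 (SD, n = 4) in TET1 KO livers, a difference of 2.45 with an exact permutation p of 0.114 (0.457 after adjustment over the 4 pairs). Although the groups did not overlap, 4 of the 35 assignments, the observed one included, gave a difference at least as large.

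The Cyp27a1 to Cyp7a1 ratio was 7, 3.90 and 3.41 in WT livers and 31.0, 4.81, 48.6 and 5.98 in TET1 KO livers, with a log2 difference of 1.67 (exact permutation p = 0.229, adjusted 0.457). The Cyp8b1 to Cyp7a1 ratio was 6.92, 3.40 and 1.32 in WT livers and 5.43, 2.69, 14.9 and 1.76 in TET1 KO livers, which overlapped, with a log2 difference of 0.49 (exact permutation p = 0.657, adjusted 0.714). The Nr0b2 to Nr1h4 ratio, SHP over its inducer FXR, was 0.324, 0.289 and 0.319 in WT livers and 0.170, 0.431, 0.648 and 0.294 in TET1 KO livers, with a log2 difference of 0.15 (exact permutation p = 0.714, adjusted 0.714). No ratio reached the smallest p that the test allows. Without WT replicate 3 or TET1 KO replicate 3, the log2 difference of the Cyp8b1 to Cyp7a1 ratio turned to -0.13 or -0.092, and that of Nr0b2 to Nr1h4 turned to -0.16 without TET1 KO replicate 3.

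**Figure D3:**
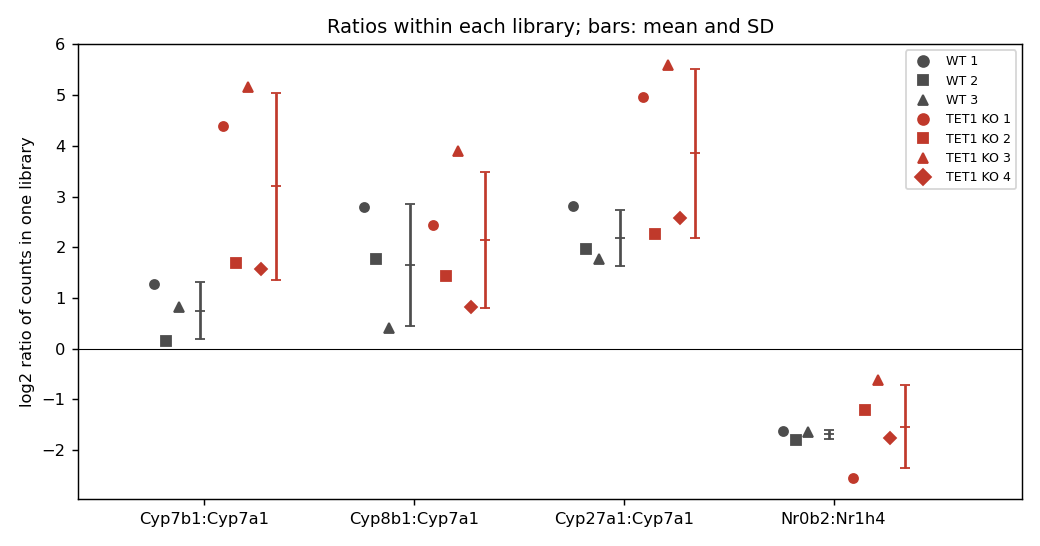
Log2 ratio of the counts of 2 genes in the same library, for 4 pairs, with 1 symbol per mouse (WT in grey, TET1 KO in red) and the group mean with its SD drawn to the right. TET1 KO replicates 1 and 3 have the highest ratios of Cyp7b1 and of Cyp27a1 to Cyp7a1, and the TET1 KO livers spread to both sides of the WT livers for Nr0b2 over Nr1h4.

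The rest of the pathway was read from 3 lists with 47 genes, of which 42 were tested. EdgeR called 1 higher and 1 lower, beside 0.874% and 1.15% of all tested genes. The median log2 fold change over these 42 genes was -0.04. Among the other synthesis enzymes (11 of 12 tested, median -0.01, and -0.12 to 0.086 with 1 mouse left out), edgeR called 0, DESeq2 called 2 lower (Hsd17b4 and Scp2), and 4 of 11 were lower and 0 higher at an unadjusted p under 0.05, beside 12.7% and 13.6% of all tested genes. Without WT replicate 2, 1 of 11 was lower at this limit. Hsd17b4, a peroxisomal bifunctional enzyme of side-chain shortening, had a log2 fold change of -0.71 ± 0.19 (SE, edgeR adjusted p = 0.0690). EdgeR called Hsd17b4 lower without TET1 KO replicate 4 (adjusted p = 0.0486) and with the replicate number as a block (0.0447). Acox2, the oxidase of bile acid intermediates, had -0.49 ± 0.18 (SE, edgeR adjusted p = 0.122, or 0.0386 with the replicate number as a block). Abcd3, a peroxisomal importer, had -0.60 ± 0.22 (SE, edgeR adjusted p = 0.122), or -0.28 without WT replicate 2. The fourth was Scp2, the peroxisomal thiolase, named after its values were seen, at -0.56 (edgeR adjusted p = 0.126).

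Among the transporters (14 of 15 tested, median -0.22, or -0.095 without WT replicate 2), Slco1a1, an uptake carrier of organic anions and bile acids, rose, with 45.1, 64.4 and 72.0 CPM in WT livers and 273, 194, 202 and 140 CPM in TET1 KO livers. The groups were separate, at a log2 difference of 1.74 ± 0.23 (SE, edgeR adjusted p = 0.00736). Ephx1, the microsomal epoxide hydrolase that has also been linked to bile acid uptake, fell, with 455, 552 and 320 CPM in WT livers and 132, 163, 179 and 209 CPM in TET1 KO livers. Here the log2 difference was -1.37 ± 0.21 (SE, edgeR adjusted p = 0.0117). Both calls were lost without WT replicate 2, at an edgeR adjusted p of 0.0501 for Slco1a1 and 0.0719 for Ephx1, while the log2 differences were 1.78 and -1.19 and calls over all genes fell from 298 to 38. Abcc3, a basolateral exporter, had a log2 fold change of -0.86 ± 0.21 (SE, edgeR adjusted p = 0.0590), and edgeR called it lower with library size only (adjusted p = 0.0471), with no filter on low counts (0.0352), without WT replicate 3 (0.0111) and without TET1 KO replicate 4 (0.0485). Abcb4, the canalicular phospholipid floppase, was named after its values were seen and had -0.57 (edgeR adjusted p = 0.0778), and DESeq2 called both Abcc3 and Abcb4 lower. Abcb11, the canalicular bile salt export pump and an FXR target, was named after its values were seen and had -0.07 (edgeR adjusted p = 0.787).

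Among the regulators (17 of 20 tested, median 0.12), edgeR called 0, with 3 higher and 1 lower of 17 at an unadjusted p under 0.05, shares near those of all tested genes (13.6% higher) or below them (12.7% lower). With 1 mouse left out, 1 (without WT replicate 3) to 4 (without TET1 KO replicate 1) regulators were higher at this limit, and the median lay between 0.047 (without WT replicate 3) and 0.18 (without WT replicate 1 or 2). DESeq2 called Nr1i3 higher and Klb lower. Klb, the co-receptor through which FGF15 from the gut represses Cyp7a1, had a log2 fold change of -0.91 ± 0.23 (SE, edgeR adjusted p = 0.0655). EdgeR called Klb lower with no filter on low counts (adjusted p = 0.0411) and with the replicate number as a block (0.0224). Nr1i3, which encodes the nuclear receptor CAR, had 0.56 ± 0.19 (SE, edgeR adjusted p = 0.105). Mafg, a repressor of bile acid genes, was named after its values were seen and had 0.39 (edgeR adjusted p = 0.125).

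The level of Cyp7b1 is known to be higher in male than in female mouse liver, as is that of Slco1a1, so lists of sex-biased genes were read beside it. Of 10 male-biased liver genes, edgeR called 3 higher (Cyp4a12a, Cyp4a12b and Selenbp2) and 0 lower, and DESeq2 called 3 higher and 2 lower. At an unadjusted p under 0.05, 5 were higher and 2 lower. Over all tested genes, edgeR called 0.874% higher and 1.15% lower, and 13.6% were higher and 12.7% lower at the unadjusted limit. DESeq2 called 8.74% in either direction. The male-biased genes had a median log2 fold change of 1.00. They summed to 3949 to 6290 CPM in WT and 4983 to 8893 CPM in TET1 KO livers. Of 10 female-biased genes, 4 were tested and 0 called by edgeR or DESeq2 (2 lower at an unadjusted p under 0.05), with a median of -1.18, and they summed to 108 to 389 CPM in WT and 67.4 to 154 CPM in TET1 KO livers. That median was -0.74 without WT replicate 2 and lay between -1.65 and -0.97 without any other mouse. EdgeR called 1 female-biased gene lower without WT replicate 3 and 1 lower without TET1 KO replicate 4. The level of Cyp7a1 is known to follow the time of day and feeding, and a clock list of Dbp, Per and related genes summed to 539 to 639 CPM in WT and 841 to 976 CPM in TET1 KO livers. In that list edgeR called 4 of 10 genes higher (Dbp, Tef, Per3 and Bhlhe41), beside 0.874% of all tested genes. DESeq2 called 6 higher, where it called 8.74% of all genes with an adjusted p, in either direction. All 10 estimates were positive, beside 7543 of the 14754 tested genes, with a median of 0.85. Without TET1 KO replicate 1, edgeR called 2 of the clock genes. Over the 7 cases of 1 mouse left out, 0 to 5 genes of this list were called higher. In the male-biased list 0 to 4 were called higher, and 1 was called lower without TET1 KO replicate 4. Without WT replicate 2, 0 clock genes were called, at a median of 0.81. Without TET1 KO replicate 2, 0 male-biased genes were called, at a median of 0.89. The opposite clock list, with Arntl and Cry1, had 0 of 5 called by edgeR or DESeq2 (1 higher at an unadjusted p under 0.05), a median of -0.34 and sums of 91.7 to 96.0 CPM in WT and 94.2 to 144 CPM in TET1 KO livers. The part of these lists in the Cyp7b1 result was not tested.

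Cholangiocyte markers, of a cell type that also takes up bile acids, had 6 of 8 tested and 6 of 6 positive estimates. Their median log2 fold change was 1.35. EdgeR called 0, DESeq2 called 2, and 4 were higher at an unadjusted p under 0.05, beside 13.6% of all tested genes. Without TET1 KO replicate 4, the mouse with the highest sum, 5 were tested, the median was 0.54 and 1 was called higher. The markers summed to 30.4 to 38.4 CPM in WT and 46.8 to 70.0 CPM in TET1 KO livers. Most of each sum was Spp1, with 19.8 to 29.1 CPM in WT and 30.7 to 43.7 CPM in TET1 KO livers. Krt7, Krt19, Epcam and Muc1 had 4 to 33 counts outside TET1 KO replicate 4 and 58 to 150 counts in that mouse. Markers of Kupffer cells (234 to 394 CPM in WT, 182 to 395 CPM in TET1 KO), stellate cells (308 to 526 and 311 to 451 CPM), endothelial cells (196 to 210 and 174 to 204 CPM) and lymphocytes (3.81 to 6.90 and 5.71 to 13.6 CPM) overlapped between the genotypes, and edgeR called only Rgs5, of the stellate list, as lower, a call that held only without TET1 KO replicate 4 of the 7 mice left out in turn (edgeR adjusted p between 0.0522 and 0.206 in the other 6 cases), while DESeq2 called 3 stellate markers and 1 endothelial marker lower. Periportal markers summed to 3215 to 4370 CPM in WT and 2693 to 4396 CPM in TET1 KO livers. Of these 9 markers, 6 had negative estimates, with a median of -0.28. At an unadjusted p under 0.05, 3 were lower and 1 higher, beside 12.7% and 13.6% of all tested genes. EdgeR called Cdh1 higher, and DESeq2 called Cdh1 higher and Hsd17b13 lower. Without WT replicate 2, Cdh1 was not called (edgeR adjusted p = 0.0772), at a log2 fold change of 1.86, against 2.01 with all mice. The median was then -0.14, and 0 periportal markers were lower at an unadjusted p under 0.05. The part of these levels in the results for the 10 genes was not tested.

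The genes whose log2 CPM followed a member most closely over the 7 mice were taken from 14744 other tested genes by Pearson r, as a description in which all points share libraries and depth. For Cyp7b1 they were Mup17 (0.988), Msantd1 (0.988) and Zfp282 (0.984), of which Mup17 belongs to a family of near-identical genes and is uncertain. Cyp7a1 was followed by Oas3 (0.985), Wdr76 (0.980) and Dapk1 (0.973). For Cyp8b1 they were Zfand5 (0.988), Pars2 (0.969) and 1700048O20Rik (0.969), and for Nr0b2 they were Tspyl4 (0.976), Shc1 (0.973) and Hic1 (0.963). No other member was among the genes compared. Some of these genes had few counts, since Oas3 fell to 0.409 CPM (TET1 KO replicate 3) and Msantd1 to 0.290 CPM (WT replicate 2). 1700048O20Rik fell to 0.0626 CPM in TET1 KO replicate 1. As the highest of 14744 values over 7 mice, these r are high by selection.

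**Figure D4:**
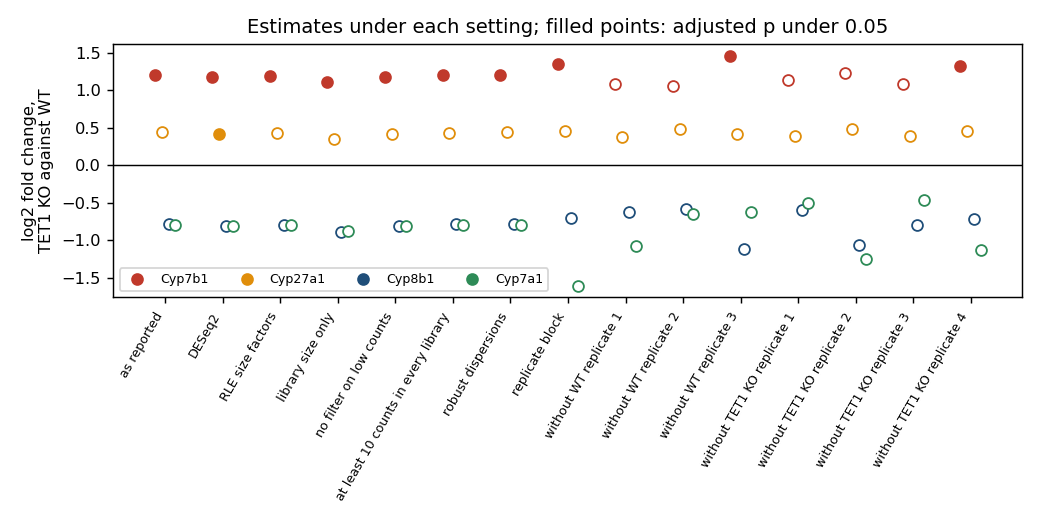
Log2 fold change of Cyp7b1, Cyp27a1, Cyp8b1 and Cyp7a1 as reported and under 14 alternatives, with filled points at an adjusted p under 0.05. Cyp7b1 stays between 1.06 and 1.46 and loses its call without any 1 of 5 mice, while Cyp7a1 moves between -1.61 and -0.46 and passes in none.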

How the data were processed

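Liver RNA of 3 WT and 4 TET1 KO mice was sequenced from a strand-marking library, after poly(A) selection or, as the labels allow, rRNA removal. The authors deposited raw read counts per Ensembl gene and mouse, without normalization. The submitters' processing notes name Trimmomatic 0.36, GSNAP, featureCounts 1.5.3 and GRCm38. The annotation release and the strand setting of the counting are not given in the sources used here, so overlapping, antisense and near-identical genes are uncertain.

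The test was edgeR 4.0.16 in R 4.3.3 (filterByExpr, TMM, glmQLFit with legacy = FALSE and robust = FALSE, quasi-likelihood test, no covariates). Benjamini-Hochberg adjustment ran over all 14754 tested genes, and genes were called at an adjusted p under 0.05. The kept genes held at least 99.88% of each library, and 5 repeated entries were left out. No replicates of a genotype agreed within sampling noise (lowest chi-square per degree of freedom 26.4). Ratios used counts with 0.5 added and exact permutation tests. DESeq2 1.42.0 was an alternative, as were other scaling (RLE, library size only), filters, robust dispersions, an adjusted p under 0.1, the replicate number as a block, 2 added to each count for ratios, and leaving out each mouse, which was extended to the marker, sex-biased and clock lists after the data had been seen. Exon lengths for RPKM came from GENCODE M1 (NCBIM37) by Ensembl identifier, and positions and promoters from RefSeq GRCm38.p6. The members and lists were chosen with earlier results of these data known. Named genes are all members, the called genes and the 3 with the smallest p of each pathway list, called genes of the other lists, and the 3 genes most like Cyp7a1, Cyp7b1, Cyp8b1 and Nr0b2. Some genes that this rule names are not reported here. The labels give no batch or date.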

Additional observations from a re-analysis of the deposited data

Results flagged for a closer look

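Each level reported for the 4 TET1 KO livers was examined for 1 mouse far from the rest, by the gap to the nearest mouse over the whole range of the group (Dixon's test at its 95% critical value). Of 38 items, 4 passed, where chance alone gives about 1.9. For Baat, the enzyme of bile acid conjugation, the value was 0.836, with 153 CPM in TET1 KO replicate 1 and 233 to 248 CPM in the others. The same mouse was low in the summed hepatocyte markers (0.95, with 80397 CPM against 89752 to 90240 CPM in the other TET1 KO livers). It lay within the WT range of that sum, 77140 to 88498 CPM. It was also low in the summed pericentral hepatocyte markers (0.944, with 5447 CPM against 9949 to 10217 CPM), a sum led by Cyp2e1 (3953 CPM there). For Abcd3, the peroxisomal importer, the value was 0.883, with 346 CPM in TET1 KO replicate 4 and 250 to 261 CPM in the others.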

How the results depend on the processing

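The direction of every member held under all 14 alternatives, except for Baat (0.045 without TET1 KO replicate 1), Nr0b2 (-0.084 without TET1 KO replicate 3) and Slc10a1 (0.028 without WT replicate 2). These 3 members were called under none of them, and without 1 mouse they ranged over -0.17 to 0.045, -0.084 to 0.49 and -0.27 to 0.028. The number of members called higher was 1 as reported, 2 with DESeq2 and 2 at an adjusted p under 0.1 (where 11.3% of tested genes were called), and 0 to 1 when 1 mouse was left out, and the number called lower was 0 throughout. In the pathway lists 1 gene was called higher, 2 with DESeq2 and 0 to 1 without 1 mouse. The 1 called lower became 6 with DESeq2, 3 with no filter on low counts, 2 with library size only, 4 with the replicate block, 5 at an adjusted p under 0.1 and 0 to 3 without 1 mouse. Over all genes the 298 calls became 1315 with DESeq2, 592 with no filter, 1326 with the replicate block and 38 to 891 without 1 mouse. With library size only there were 419, of which 25.5% were higher, against 43.3% as reported. The cause of these moves was not tested.

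For the log2 ratios, leaving out 1 mouse gave 1.80 to 2.99 for Cyp7b1 to Cyp7a1, 1.09 to 2.20 for Cyp27a1 to Cyp7a1, -0.13 to 1.06 for Cyp8b1 to Cyp7a1 (negative without WT replicate 3, -0.13, or TET1 KO replicate 3, -0.092) and -0.16 to 0.49 for Nr0b2 to Nr1h4 (negative without TET1 KO replicate 3, -0.16). Same-numbered mice correlated by 0.21, -0.12 and -0.10 in their deviations from the group means. Between different numbers the correlations ran from -0.30 to 0.31. With so few mice, these values cannot decide whether equal numbers mark paired mice. With the replicate block, to which TET1 KO replicate 4 adds nothing since it has no WT partner, Cyp7b1 had a log2 fold change of 1.35 (edgeR adjusted p = 0.00914), Cyp7a1 had -1.61 (edgeR adjusted p = 0.0850), and the ratios had differences of 2.99, 0.94, 2.09 and 0.22 in the order Cyp7b1, Cyp8b1 and Cyp27a1 to Cyp7a1 and Nr0b2 to Nr1h4. With 3 against 4 mice, the width of the intervals limits what can be read from Cyp7a1, Cyp39a1 and Nr0b2, and the counts of Cyp39a1 limit its precision.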
